A study of Homo sapiens with 6 samples.

Results

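Ribosomal proteins, the protein components of the cytoplasmic ribosome, were encoded by 84 of the 19833 protein-coding genes analysed. They were selected by symbol, namely RPL or RPS followed by a digit together with RPLP0, RPLP1, RPLP2 and RPSA, leaving out the RPS6K kinases, antisense genes, L1-type paralogs and pseudogenes. Of these, 47 encode proteins of the large subunit, 3 encode the stalk of the large subunit and 34 encode proteins of the small subunit. FAU, which also encodes a ribosomal protein fused to a ubiquitin-like sequence, does not carry such a symbol and was counted with other genes.

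The study asked which RNAs are bound by CELF1 (CUGBP1) in melanoma, using RIP-Seq, the sequencing of RNA recovered with an antibody against its binding protein, in SK-Mel-103 cells and UACC-62 cells, which are 2 established human melanoma lines. Both lines were grown in medium with serum, fixed with formaldehyde and lysed by sonication, and the labels name no drug, knockdown or genetic change in these samples. Each IP with the anti-CUGBP1 antibody was set against the input RNA of the same lysate. There was 1 IP from SK-Mel-103 and there were 2 from UACC-62 (replicates 1 and 3), and no immunoprecipitation with a control antibody was analysed here.

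CELF1 is an RNA-binding protein that recognises GU-rich stretches, mostly in 3′ UTRs, and it is known for promoting deadenylation and decay of such mRNAs and for roles in translation and splicing. Ribosomal protein mRNAs are among the most abundant and most stable messages of growing cells. They share a terminal oligopyrimidine (TOP) tract at the 5′ end through which mTOR signalling controls their translation, and most have short 3′ UTRs. Of the 80 members with enough reads, 64 had an entry in the RefSeq promoter table (GRCh38.p14), and 42 of these (65.6%) started with C followed by at least 4 pyrimidines, as against 4.04% of all 27305 entries. The members without an entry included RPL23, RPL23A, RPL30, RPL37, RPL39L, RPL5, RPL7, RPL8, RPS15A, RPS2 and RPS20.

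The lists hold 20-bp bins with the IP reads and input reads of each bin. Where 3 values are given, the order is SK-Mel-103, then replicate 1 and then replicate 3 of UACC-62. Listed bins held 10958459, 11333805 and 14436573 reads in the IP, and 8453517, 10161917 and 8900292 reads in the input. Only bins that passed the peak caller are listed, so that each ratio is conditional on listing. A bin with over 200 input reads was listed with as few as 8, 5 and 4 IP reads, so a bin could pass while holding far fewer reads in the IP than in the input. Of 8 melanocyte lineage markers, 3 had a listed bin in all 3 samples, and PMEL and TYRP1 had none in any. Their summed input was 900 reads for SK-Mel-103 and 15697 and 11947 reads for UACC-62.

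The bins that carry the results are shown here on the transcript strand, 5′ to 3′, with every TGT in capitals, since UGU is the core of the elements bound by CELF1. Positions are in GRCh37. For 4 members among those with the highest IP over input and the 4 with the lowest, the bin with the most IP reads in its weakest sample was taken.
RPS29, 3′ UTR, chr14:50050321-50050340, minus strand: aaaccatgataattcttTGT
RPL15, 3′ UTR, chr3:23961201-23961220, plus strand: atcttattagggagtTGTat
RPLP1, coding exon, chr15:69747761-69747780, plus strand: ttctagctgaggagaagaaa
RPS28, 3′ UTR, chr19:8387201-8387220, plus strand: gtcacagtctgctccttttt
RPS2, coding exon, chr16:2012741-2012760, minus strand: aagccccacacTGTcccttg
RPS4X, coding exon, chrX:71493721-71493740, minus strand: gctaccccgatcccctcatc
RPL12, coding exon, chr9:130210201-130210220, minus strand: ttgatggccgccatcctcat
RPL3, 3′ UTR, chr22:39708881-39708900, minus strand: attttccactgacatcttgc

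The RPL15 bin held 1703, 360 and 527 IP reads against 496, 224 and 220 input reads, which is more IP than input per total in every sample. The RPS4X bin held 219, 189 and 286 IP reads against 794, 1326 and 1227 input reads. Both bins passed the filter on IP reads used below in all 3 samples, with opposite ratios. The RPS2 bin had 2 exact copies of its 40-base surroundings elsewhere in the genome and those of RPLP1 and RPL12 had 1 each, while those of RPS29, RPL15, RPS28, RPS4X and RPL3 had none.

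When bound was defined by peak bins alone, nearly every ribosomal protein gene qualified. A bin called in all 3 samples (p-value under 0.05 and over 30 IP reads in each), named a common bin here, was found in 78 of the 84 members. Among all protein-coding genes the same rule called 8.69%. By sample, 80, 78 and 79 members had at least 1 bin with more than 30 IP reads, where 15%, 12.5% and 17% of all protein-coding genes did. RPS16, a small subunit protein, and RPL28, a large subunit protein, were measured but lacked a common bin. RPL3L and RPL10L, tissue-restricted paralogs of RPL3 and RPL10, had no listed bin in any sample. The remaining 2 without one are the Y-linked paralogs of RPS4X, given without values. Among 252 other genes with at least the lower-quartile input reads of the members, 92.5% also had a common bin. The share of members with one was thus close to that of other genes of such summed input. These genes were not matched on input per length. Their median mRNA length was 3892 nt, against 781.5 nt for measured members. Their median input per kb, on the scale used below, was 189, 172 and 174, against 721, 579 and 546 for measured members. Shares at equal input per kb were not compared.

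The ratio of IP to input gave the opposite picture. For 80 measured members (20 or more IP and input reads together in every sample), the median log2 ratio of IP to input was -1.70 for SK-Mel-103, and -2.65 and -2.29 for UACC-62 (mean -2.47 ± 0.25, SD, n = 2). The corresponding medians of all 8562 measured genes were -0.20, -0.61 and -0.39. The members minus all genes gave differences of -1.50, -2.04 and -1.90 log2 units. In reads, members made up 5.59%, 4.73% and 4.81% of the listed input but 1.91%, 0.761% and 1.10% of the listed IP. All 3 samples placed the group low, and UACC-62 placed it lower than SK-Mel-103.

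Per gene, 79 of the 80 measured members had log2 IP over input below 0 in all 3 samples, against a background of 50.5% of measured genes. At least 2-fold lower in the IP in all 3 samples were 70 members, against a background of 15.8%. No member was above 0 in all 3 samples, where 27.2% of measured genes were. Below the 10th percentile of all measured genes of each sample were 67, 73 and 74 members. Under the all-gene median in all 3 samples were 78 of the 80, and RPS29 was not. These counts are descriptive, since 3 pairs of IP and input cannot give a two-sided exact p under 0.25.

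**Figure D1:**
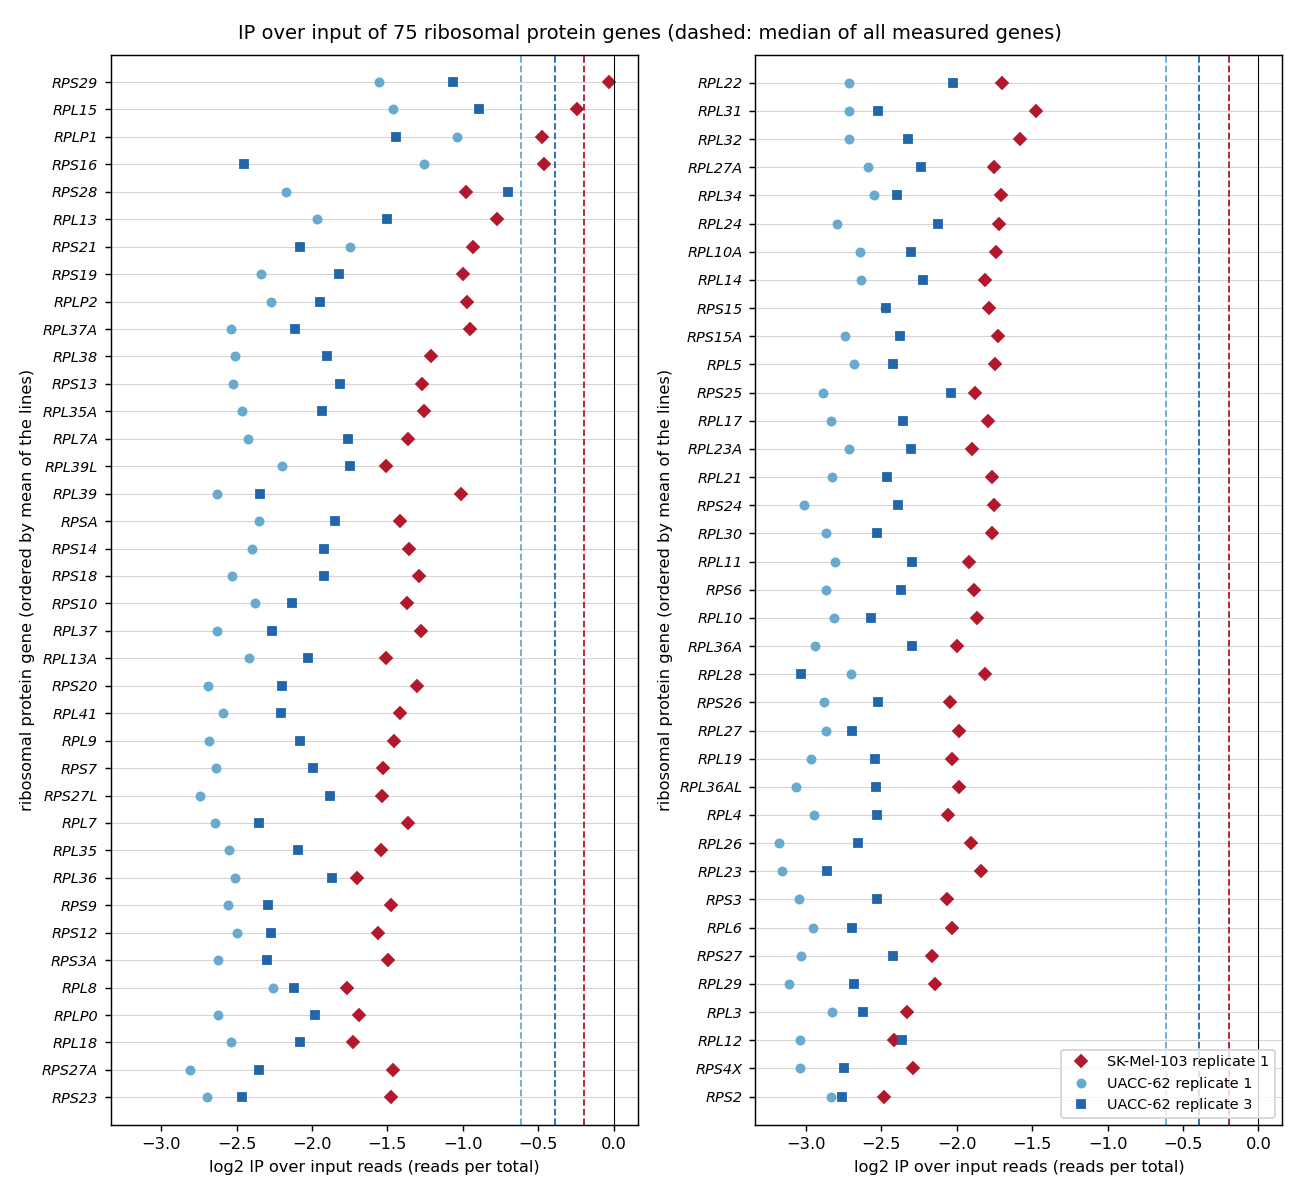
Log2 IP over input reads of 75 measured ribosomal protein genes, 1 row per gene in order of the mean of the lines (left panel, genes with higher means; right panel, genes with lower means). Diamonds are SK-Mel-103, circles and squares are UACC-62 replicates 1 and 3, and dashed lines mark the median of all measured genes in each sample (-0.20, -0.61 and -0.39), to the right of nearly all points.

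High input accompanied part of this difference. The 252 other genes of comparable summed input had medians of -0.88, -1.51 and -1.11, which lay between the members and all genes. Of these 252 genes, 42.9% were at least 2-fold lower in the IP in all 3 samples. Against all genes of such summed input, themselves included, the members differed by -0.61 log2 units for SK-Mel-103 and by -0.88 for UACC-62. The part of input level in the members' values was not tested. Their mRNAs are also short, with a median length of 781.5 nt and a median 3′ UTR of 150 nt, compared with 3610 nt and 1540 nt for all measured genes.

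Other parts of the translation machinery were lower in the IP as well, though less so. The 74 measured genes of mitochondrial ribosomal proteins, which are nuclear-encoded but serve the ribosome of mitochondria, had medians of -1.09, -1.94 and -1.66, and 41 were at least 2-fold lower in all 3 samples. A common bin was present in 7 of 78 such genes (8.97%), near the 8.69% of all protein-coding genes. The 19 other TOP mRNAs, such as elongation factors, had medians of -1.29, -2.19 and -1.84, and 17 had a common bin. The 14 ribosome assembly factors, nucleolar proteins that build the subunits, had medians of -1.15, -1.81 and -1.49. None of these differences from the ribosomal protein genes was tested.

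**Figure D2:**
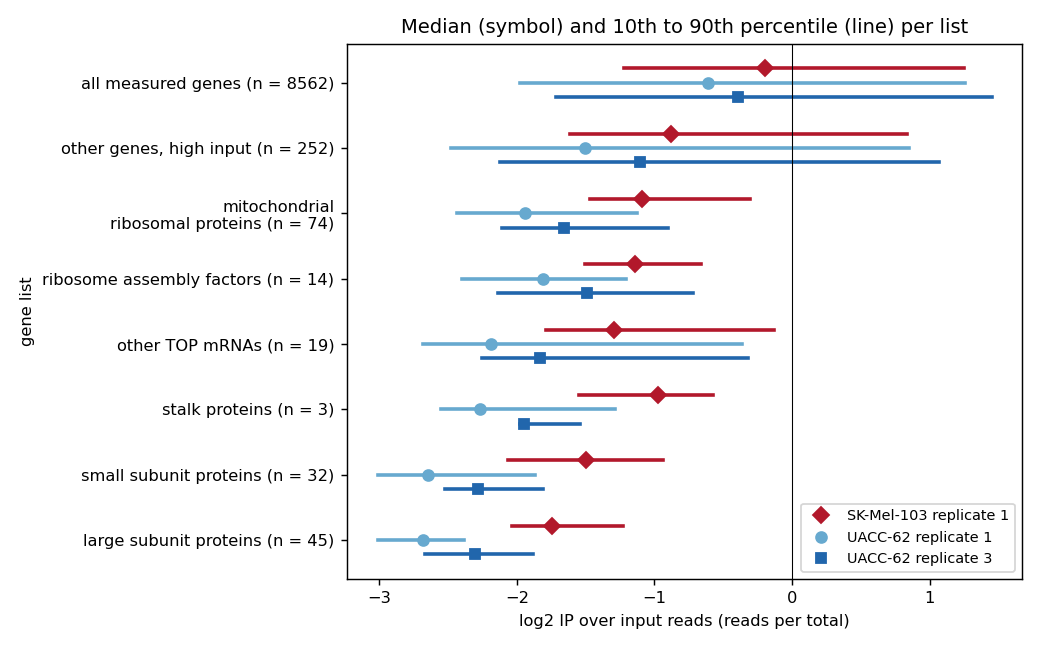
Log2 IP over input reads per gene list, with the median as symbol and the 10th to 90th percentile of genes as line, for SK-Mel-103 (diamonds) and UACC-62 replicates 1 (circles) and 3 (squares). Large and small subunit proteins sit lowest, near -1.7 and -1.5 in SK-Mel-103, and the median of all measured genes sits highest in each sample.

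The medians of both subunits lay close together. Large subunit genes without the stalk (45 measured) had medians of -1.74, -2.68 and -2.31, and small subunit genes (32 measured) had medians of -1.50, -2.65 and -2.28. A common bin was present in 44 of 47 and in 31 of 34. The stalk proteins, which recruit translation factors to the ribosome, were less low at -0.98, -2.27 and -1.95, with common bins in all 3 genes.

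Within the stalk, RPLP0 anchors the complex and RPLP1 and RPLP2 bind to it as dimers. RPLP0 had 7049, 4305 and 8263 IP reads against 17572, 23827 and 20127 input reads, a log2 ratio of -1.69, -2.63 and -1.98. Common bins covered 59.3% of its canonical mRNA, the highest share of any measured member. RPLP1 had 845, 394 and 688 IP reads against 905, 727 and 1155 input reads, and its log2 ratio of -0.47, -1.04 and -1.44 was among the 6 highest. RPLP2 had 1213, 548 and 874 IP reads, with a log2 ratio of -0.98, -2.27 and -1.95. RPLP0, RPLP1 and RPLP2 were all highest in SK-Mel-103.

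Among the large subunit genes, RPL5, RPL11 and RPL23 encode proteins that bind MDM2 and stabilise p53 when ribosome assembly fails, as does RPS7 of the small subunit. RPL5 showed a log2 ratio of -1.75, -2.68 and -2.42, and RPL11 one of -1.92, -2.81 and -2.30. RPL23 was at -1.84, -3.16 and -2.86, and RPS7 at -1.53, -2.63 and -1.99. These 4 were therefore at least 2-fold lower in the IP in each sample, within the range of the other members. RPL12, which forms the base of the stalk, had 1154, 443 and 977 IP reads against 4748, 3273 and 3096 input reads. Its log2 ratio of -2.41, -3.04 and -2.36 was among the 6 lowest. RPL3, a core protein near the peptidyl transferase centre, was at -2.33, -2.83 and -2.62, and RPL29 at -2.15, -3.11 and -2.68. Both had low values in every sample, as did RPL4, which lines the exit tunnel, at -2.06, -2.95 and -2.53. RPL4 was all the same among the 6 members with the most IP reads (7602, 2385 and 3588). Its input was 24464, 16529 and 12785 reads. RPL7 also belonged to those 6, with 4765, 2487 and 4750 IP reads and a log2 ratio of -1.36, -2.64 and -2.35. RPL41 and RPL39, which encode very small proteins of the large subunit, were at -1.41, -2.59 and -2.21 and at -1.01, -2.63 and -2.34. RPL28 was at -1.81, -2.70 and -3.03, with 668, 159 and 131 IP reads.

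Among the small subunit genes, RPS6 encodes the substrate of the S6 kinases. It had 4773, 1877 and 3280 IP reads against 13622, 12306 and 10462 input reads, a log2 ratio of -1.89, -2.87 and -2.37. RPSA, also known as the laminin receptor precursor, was at -1.41, -2.35 and -1.85. RPS27A, which is translated as a fusion with ubiquitin, was at -1.46, -2.81 and -2.35. The lowest small subunit genes were RPS2 at -2.49, -2.84 and -2.76, RPS4X at -2.29, -3.04 and -2.75, and RPS27 at -2.17, -3.03 and -2.42. RPS2 had 2338, 1647 and 2032 IP reads against 10101, 10545 and 8481 input reads. All of these were low in every sample, and their ranges over the samples overlap, so that their order carries no weight. RPS3A had 5451, 1772 and 3197 IP reads and common bins over 53.3% of its canonical mRNA, at a log2 ratio of -1.49, -2.62 and -2.30. RPS18 and RPL9 followed with 50% each.

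The small subunit genes RPS29, RPS16 and RPS28 were among the 6 highest, together with RPL15 and RPLP1, and their samples lay far apart. RPS29 had 751, 288 and 634 IP reads against 591, 760 and 819 input reads, so that its log2 ratio was -0.03 for SK-Mel-103 and -1.55 and -1.07 for UACC-62. RPS16 had 452, 127 and 202 IP reads and a log2 ratio of -0.46, -1.26 and -2.45. RPS28 had 676, 516 and 1297 IP reads and a log2 ratio of -0.98, -2.17 and -0.70. The UACC-62 replicates of RPS16 and RPS28 differed by over 1 log2 unit, and no statement about UACC-62 is made from their means.

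Of the retained paralogs whose symbols end in L, RPL36AL was at -1.99, -3.06 and -2.54, RPL39L at -1.51, -2.20 and -1.75, and RPS27L, a target of p53, at -1.54, -2.74 and -1.88. RPL39L and RPL36AL had few reads (209, 125 and 326 IP reads in RPL39L) and only 1 and 2 common bins. Common bins were scarcest, next to RPL28 and RPS16, in RPS27L (0.98% of the canonical mRNA) and RPL14 (1.68%), whose canonical transcripts carry long 3′ UTRs with few listed bins.

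Levels per length divide the same IP and input reads by mRNA length, so they add no separate evidence on IP against input. The median measured member had 721, 579 and 546 input reads per kb per 1000000 listed reads, and 229, 85.8 and 124 IP reads on the same scale. On this scale, the highest IP level was that of RPL15 in SK-Mel-103 (866) and that of RPLP0 in UACC-62 replicate 1 (344). The highest input level was that of RPL26 (2057), RPLP0 (2122) and RPL41 (2204), respectively. These levels use the reads of listed bins only.

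Within the mRNA, the common bins of these genes lay mostly in coding regions. Of 876 common bins in members, 721 lay in the coding region of the canonical transcript and 152 in its 3′ UTR, which is 82.6% and 17.4% of the 873 bins inside that transcript (Wilson 95% interval of the 3′ UTR share, 15.04% to 20.1%). None lay in a 5′ UTR, which allows a share of up to 0.344% (3 counts). In all protein-coding genes the 3′ UTR held 85.0% of common bins and the coding region 14.9%. In the 252 other genes of comparable summed input these were 77.2% and 22.7%. Where a bin in any 3′ UTR of a gene was counted as 3′ UTR, the share in members was 25.1%, and above 100 IP reads it was 40.4%. The interval covers only counting error, and adjacent bins are not independent.

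Most coding bins of the members were listed. Of their 2000 coding bins, 73.4%, 70.3% and 74.95% were listed, compared with 23.3%, 20.5% and 25.7% in other measured genes. Of their 3165 bins in canonical 3′ UTRs, 28.2%, 12.6% and 15.3% were listed, compared with 30.5%, 29.6% and 36.0%. The canonical 3′ UTR was at most 100 nt long in 37 measured members and over 1000 nt in 19.

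A rise of IP over input from coding region to 3′ UTR was small in these genes in UACC-62. In 70 members with enough reads in both regions, the 3′ UTR minus coding difference in log2 IP over input had medians of 0.40, 0.06 and 0.02. In all 5814 such genes the medians were 0.35, 0.32 and 0.26. The 3′ UTR was above the coding region in all 3 samples in 29 of 70 members, against a background of 50.4%, and below it in all 3 in 15, against a background of 15.3%. SK-Mel-103 showed a rise in the members close to that of all genes, and both UACC-62 replicates showed almost none. At least 2-fold higher in the 3′ UTR in all 3 samples were 5 members, near the background of 9.29%. They were RPS18, RPL38, RPL15, RPL23A and RPLP1.

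**Figure D3:**
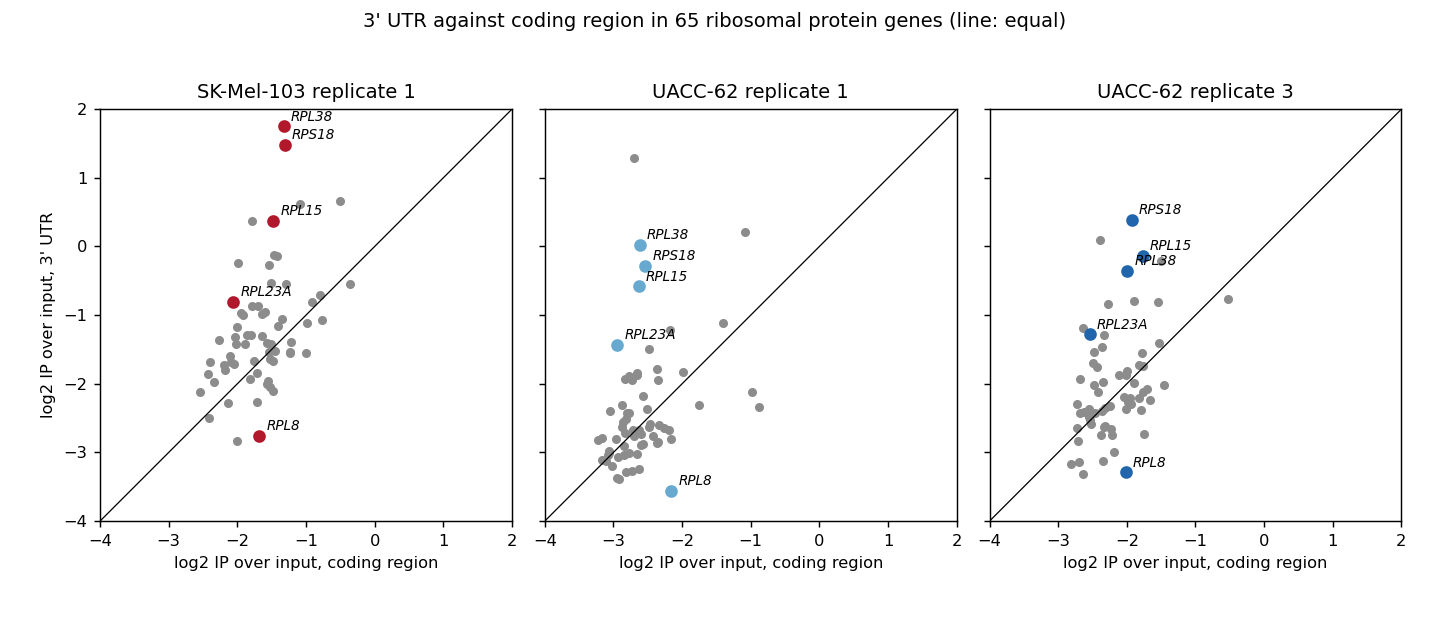
Log2 IP over input in the 3′ UTR (vertical) against the coding region (horizontal) of 65 ribosomal protein genes, 1 panel per sample, with the line of equal values. RPL15 has coding values like the others (-1.48, -2.63 and -1.77) and 3′ UTR values of 0.38, -0.58 and -0.13, whereas RPL8 falls under the line in each panel.

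Only RPL15 and RPL23A, both large subunit proteins, had over 200 IP reads in the 3′ UTR in every sample among these 5. RPL23A had 349, 244 and 448 IP reads there, and a difference of 1.26, 1.52 and 1.26, which became 0.11, 1.29 and 0.90 without bins that have an exact copy elsewhere in the genome. RPS18 had 57, 10 and 33, RPL38 had 60, 24 and 46 and RPLP1 had 34, 17 and 37, and their differences rest on those few reads. RPS29 had a difference of 1.70, 0.96 and 0.74 on 564, 202 and 438 IP reads. In the other direction, RPL8 was lower in its 38-nt 3′ UTR by -1.07, -1.40 and -1.27, also on few IP reads (82, 45 and 66). RPL17, RPL6 and RPL24 were lower in the 3′ UTR in all 3 samples as well.

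RPL15, a large subunit protein, departed from the other members in its 3′ UTR. Its canonical mRNA has a 3′ UTR of 1491 nt. Over the coding region it had 4201, 1060 and 2345 IP reads against 9034, 5895 and 4925 input reads, a log2 ratio of -1.48, -2.63 and -1.77 that ranked 22, 32 and 12 from the top among 70 members. In the 3′ UTR it had 16175, 2805 and 4723 IP reads against 9611, 3747 and 3192 input reads, a log2 ratio of 0.38, -0.58 and -0.13. The difference was 1.86 for SK-Mel-103 and 1.85 ± 0.30 (SD, n = 2) for UACC-62. The difference was thus of like size in all 3 samples, and it was 1.57, 1.68 and 1.32 without bins that have an exact copy elsewhere. RPL15 also had the most IP reads of any member in SK-Mel-103, 20454 in all, with 3899 and 7083 in UACC-62.

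The change in ratio came within a short distance of the stop codon. In the 100 nt after it, RPL15 was still at -1.69, -2.91 and -1.87, as in its coding region. Its input fell from 1797, 1191 and 964 reads in these 100 nt to 556, 234 and 195 reads from 100 to 200 nt. Its IP reads went from 719, 176 and 427 to 1401, 276 and 480. The change in ratio thus came with a fall in input, whose cause was not tested. From 100 to 500 nt RPL15 was at 0.93, 0.20 and 0.44, on 7360, 1427 and 2168 IP reads. It fell back to -0.13, -0.78 and 0.00 from 500 to 1000 nt and reached 0.94, -0.02 and 0.16 from 1000 to 1500 nt. The other measured members summed were at -1.43, -2.70 and -2.15 in the 100 nt after the stop codon and at -1.10, -2.51 and -2.17 from 100 to 500 nt. From 500 to 1000 nt they were at -0.92, -0.85 and -0.82, on 1050, 125 and 307 IP reads. From 1000 to 1500 nt they were at -1.09, -1.41 and -0.62, on 930, 162 and 405 IP reads. Both distal stretches were above the 1000 nt before the stop codon (-1.73, -2.69 and -2.19), so a distal rise was not confined to RPL15.

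**Figure D4:**
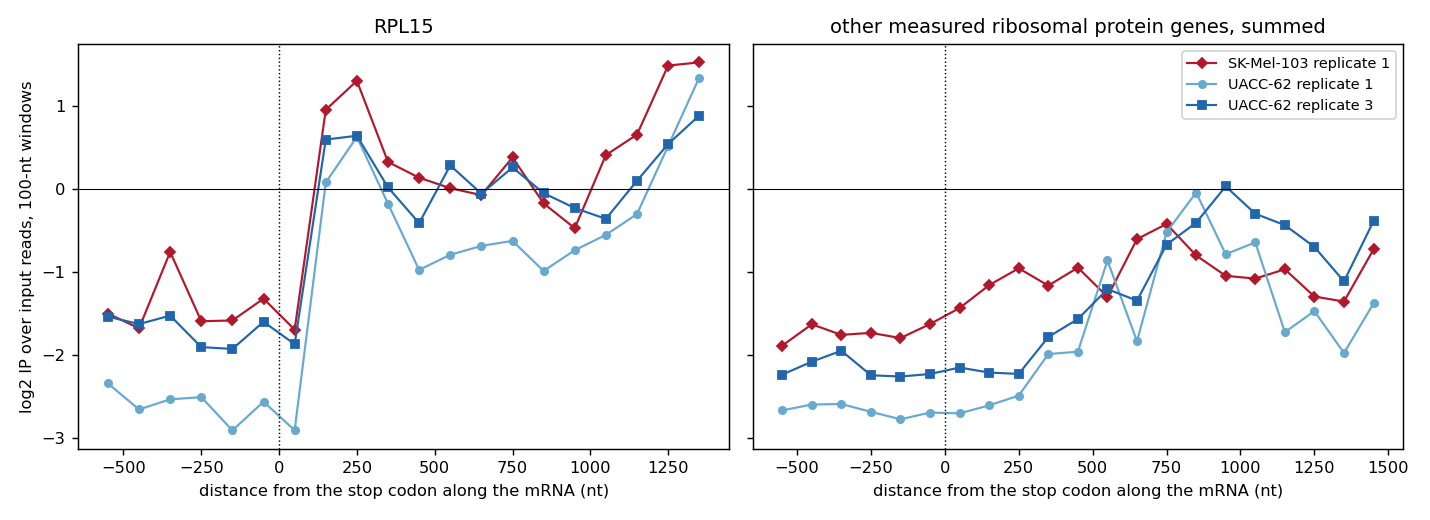
Log2 IP over input reads in 100-nt windows along the canonical mRNA, by distance from the stop codon (dotted line), for RPL15 (left) and the other measured ribosomal protein genes summed (right). RPL15 rises above 0 in every sample between 100 and 300 nt after the stop codon, and the other genes stay under 0 there; beyond 500 nt their sums rest on few reads.

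The 18 other measured members with a 3′ UTR of over 1000 nt did not offer a match for RPL15 in depth. Beyond 100 nt from the stop codon, RPL15 had 15456, 2629 and 4296 IP reads at a log2 ratio of 0.61, -0.12 and 0.25. RPL22, a large subunit protein, had 765, 266 and 809 IP reads there at -1.29, -1.90 and -1.23, and RPS27L had 326, 304 and 641 at -1.76, -2.70 and -2.34. None of the rest had more than 100 IP reads in every sample, so that ratios in their distal 3′ UTRs could not be compared at this depth.

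RPL15 also held nearly all bins of the group with more IP than input. Of the 876 common bins, 821 (93.7%) were below 0 in all 3 samples and 11 (1.26%) were above 0 in all 3. For common bins of all protein-coding genes these shares were 20.4% and 65.8%. Of the 11 bins, 10 lay in the RPL15 3′ UTR. The bin with the highest ratio in its weakest sample lay at chr3:23961181-23961200, beside the RPL15 bin printed above, with 566, 90 and 164 IP reads and a log2 ratio of 2.07, 1.44 and 1.62. That bin holds a TGT. Of the 11 bins above 0, 54.5% held TGT, and of the 821 below 0, 24.6% did, a contrast that was not tested. Their GC content differed as well, at 29.5% in the bins above 0 and 49.0% in those below 0. The bin with the next highest ratio lay over 1000 nt downstream and is shown because it holds no TGT.
RPL15, 3′ UTR, chr3:23962261-23962280, plus strand: aaagatcttaagtcatacat

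It had 669, 119 and 163 IP reads and a log2 ratio of 2.18, 1.36 and 0.85. With more IP than input per total in all 3 samples as a further condition on common bins, 2 of the 78 members remained, RPL15 among them. The same condition kept 57.9% of the 1724 protein-coding genes with a common bin.

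Short GU-containing words were less frequent in the common bins of members than in those of all genes. The letters searched were TGT, TGTTT and TGTGT on the transcript strand within the 20 bases of a bin (TGTTT and TGTGT both hold TGT). TGT was present in 25.1% of the 876 common bins of members, in 38.2% of the 28367 common bins of all protein-coding genes and in 27.0% of 70699 bins taken at regular steps from all canonical transcripts. TGTTT or TGTGT was present in 3.08%, 9.88% and 4.81%, respectively. In the coding region alone, common bins of all genes held TGTTT or TGTGT in 3.13%, close to the members. RPL15 had TGT in 41.3% of its 75 bins in the 3′ UTR and in 17.2% of its 29 coding bins. In the canonical bins of all measured members these shares were 33.3% in 3′ UTRs and 22.85% in coding regions. In common bins of all protein-coding genes they were 40.5% and 23.5%. A match of letters does not mark a binding site, and these shares were not tested.

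SK-Mel-103 gave higher ratios than UACC-62 for the whole group. The SK-Mel-103 value minus the UACC-62 mean was above 0 in all 80 measured members, with a median of 0.80 and a range of 0.29 to 1.47, and 77 members lay above both UACC-62 replicates. Over all measured genes the median was 0.29, and 57.8% lay above both replicates. RPL39 had the widest difference (1.47), which was 1.62 and 1.33 against the single UACC-62 replicates. RPS16 had one of 1.39 that depended on the replicate, at 0.80 and 1.99. The narrowest were RPL12 (0.29), at 0.63 and -0.05 against the single replicates, and RPS2 (0.31), at 0.35 and 0.27, so that the place of RPL12 rests on replicate 3. Centred on the all-gene median of each sample, the median difference was 0.50. UACC-62 replicate 1 was in turn below replicate 3 in 76 of the 80, and in 72.1% of all measured genes. With 1 SK-Mel-103 sample the difference has no replicate check in that line, and line and library cannot be told apart.

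Near-identical copies touch these counts, since ribosomal protein genes have many processed pseudogenes and reads with up to 20 alignments were kept. An exact copy of the 40-base spliced window elsewhere in the genome was found for a median of 39.3% of the bins of a measured member, and for 1.61% to 100% by gene. Without such bins, 68 members kept a common bin and the medians were -1.51 for SK-Mel-103 and -2.36 for UACC-62. Among the named members, 93.3% of bins had a copy in RPS3A and 2% in RPL11. The part of copied bins in the members' values was not tested.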

How the data were processed

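CELF1 RIP-Seq was analysed in 3 IP samples, each with a list of bins that the authors had called relative to the matching input. The submitters' processing notes name FastQC, TopHat2 2.0.4, Bowtie 0.12.7 and SAMtools 0.1.16, and reads were aligned to GRCh37 as a first-strand library. For each 20-bp bin, the deposited Piranha lists give read counts of the IP without normalization. A p-value per bin was also deposited, and whether it was corrected is not given in the sources used here. The ratio deposited by the authors is the covariate, from which whole input reads were recovered (0.01 denotes no input). Replicates were not pooled.

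Bins were assigned to exons of GENCODE version 44 genes on GRCh37 by their centre, with the reverse of the listed strand as transcript strand. Log2 IP over input used summed reads of listed bins plus 1, divided by column totals. A measured gene had at least 20 reads in every sample. Named members were the 6 highest and 6 lowest by ratio, the 6 with most IP reads, the extremes of the line difference and of bin coverage, those without a common bin, and fixed role lists. RPL15 and its bins were looked at further after values had been seen, as were the differences between 3′ UTR and coding region. RPS19BP1 and 3 readthrough loci were left out as members. Values of 5 members are not reported here, although group summaries include them. Members and lists were chosen with earlier results of these data known. No test across genes was made, because there is 1 SK-Mel-103 sample and lists hold passing bins only. Alternatives covered read and p-value filters, strand, scaling, pseudocount, copies and left-out replicates. Functions were tested on simulated data. Python 3.11.15 with numpy 2.4.6 and pandas 2.3.3 was used. No sequence was taken from chromosome 8.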

Additional observations from a re-analysis of the deposited data

Results flagged for a closer look

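RPS29 lay above the all-gene median in SK-Mel-103 and below it in both UACC-62 replicates, with a difference between the lines of 1.28 log2 units that was not tested. Clear of the exons of protein-coding transcripts, 1 bin with more than 30 IP reads in all 3 samples lay within a member on its strand, in RPS2 at chr16:2012961-2012980, with 274, 108 and 229 IP reads against 27, 40 and 33 input reads. It overlaps the end of the annotated snoRNA gene SNORA64. No such bin lay on the strand opposite to the exons.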

How the results depend on the processing

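The count of 78 members with a common bin became 80 without a read filter, 54 above 100 IP reads, and 78 at a p-value under 0.01. It was 77 in bins of 1 gene, 68 without copied bins, 81 with readthrough loci and RPS19BP1, and 78 to 79 with a UACC-62 replicate left out. It was 0 with the listed strand taken as transcript strand and 2 when more IP than input was also required. Among all 19833 protein-coding genes, the count was 7934 without a read filter, 530 above 100 IP reads and 1723 at a p-value under 0.01. When more IP than input was also required, 999 of all genes remained. The members' median in SK-Mel-103 (-1.70) was -1.50 centred on all genes, -1.32 without scaling by totals, -1.51 without copied bins, -1.72 in bins listed in all 3 samples and -1.15 on the listed strand (2 members). In UACC-62 (-2.47) it was -1.97, -2.05 and -1.50 for centring, no scaling and the listed strand, and -2.65 to -2.29 with a replicate left out. The difference from all genes in SK-Mel-103 (-1.50) was -2.11 in bins above 30 IP reads, -1.32 without copied bins and -1.63 without a low-read filter. It was -1.29 at 200 reads, -1.17 in bins listed in all 3 samples and -1.48 in canonical transcripts. Against all genes of comparable summed input, the members included, it was -0.61. In UACC-62 (-1.97) it was -2.65, -1.86, -2.16, -1.72 and -1.53 for the same settings up to bins listed in all 3 samples. It was -0.88 against all genes of comparable summed input, the members included, and -2.04 to -1.90 with a replicate left out. The 3′ UTR share of common bins (25.1%) was 17.5% with coding regions first, 17.4% in canonical transcripts and 40.4% above 100 IP reads. The line difference (0.80) was 0.50 centred and 0.60 to 1.01 with a replicate left out. The 3′ UTR minus coding median in UACC-62 (0.04) ranged from 0.02 to 0.06 with a replicate left out. For 33 named members, 196 alternatives were computed, for UACC-62 values only and without settings for strand or copies. Of these, 163 moved by less than the spread of the UACC-62 replicates, 33 moved further and 0 changed sign. SK-Mel-103 values of single members were not varied. For the median of the members, the alternatives for strand, centring and copies were computed for both lines, and causes of the changes were not tested. No paired analysis was possible because the results come from no test, and each ratio is already taken within an IP and its own input. Depth limits distal 3′ UTRs, where few bins were listed.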
